A study of Drosophila melanogaster with 6 samples.

Results

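Ribosome biogenesis factors and the Myc network were followed in whole Drosophila melanogaster larvae homozygous for the Cdk8 allele cdk8K185. The genes were picked by FlyBase symbol: RNA polymerase I subunits, proteins whose names begin with Nop, Nnp or Non, Surf6, and a named list of nucleolar factors with Myc, Max and Mnt. The genes NonA, NonC and nonA-l, which share the prefix only, were left out. The roles of the other genes taken in by prefix were not checked in these data. The symbols matched 37 of the 17562 genes in the count table, and all 37 had enough counts to be tested.

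Total RNA was sequenced from 3 pools of cdk8K185 homozygotes and 3 pools of the control strain w1118, each of 10 whole third-instar larvae that had begun to wander in search of a place to pupate. The paper read for these data names another deposit for its RNA-seq, and was matched to them by genotype, stage and design. It describes the cdk8K185 allele as a null that also removes part of the neighbouring gene I-2, an inhibitor of protein phosphatase 1. The stock it describes had an FRT80B chromosome, was outcrossed to w1118 and kept over a TM6B Tb balancer by which homozygous larvae can be told. Homozygotes die as pupae, and until then can draw on Cdk8 product laid down in the egg. The sex of the larvae was not given, and the p-values measure only the spread between these pools.

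Cdk8 is the kinase of the Mediator module that also holds Cyclin C, and it tunes transcription by RNA polymerase II. Making a ribosome starts in the nucleolus, where RNA polymerase I copies the rRNA genes. Small nucleolar RNPs then modify the transcript, and assembly factors fold, cut and escort the precursors of both subunits. Myc, a transcription factor that binds DNA together with Max, raises the expression of many of these factors, and in fly larvae it is a main driver of cell growth. Mnt competes for Max and represses.

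In the cdk8K185 pools the assembly factors and Myc itself tended to be higher, by modest amounts, while the abundant snoRNP proteins showed smaller differences. Of the 37 genes, 12 were higher and 0 were lower in cdk8K185 than in w1118 (edgeR quasi-likelihood test, adjusted p under 0.05). That is 32.4% called higher, beside 19.9% of all 10632 tested genes called higher, 17.0% called lower and 36.9% called in either direction. At an unadjusted p under 0.05 the same test gave 18 higher and 1 lower, beside 2720 higher and 2452 lower over all 10632 genes. DESeq2 called 8 higher and 0 lower, beside 14.9% of all its tested genes called higher. With limma-voom 11 were higher and 0 lower, beside 19.6% of all genes called higher. Without cdk8K185 replicate 3 the count of genes called higher was 7 of 37, beside 14.7% of all genes.

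The log2 fold change, cdk8K185 over w1118, was above 0 for 34 of the genes and below 0 for 3. Its median was 0.34, with a range from -0.42 to 0.77, beside a median of 0.02 over all tested genes. None of the 37 reached a 2-fold difference, and 5 of those called were at least 1.5-fold higher. All 3 cdk8K185 libraries lay above all 3 w1118 libraries for 21 genes, where 29.2% of all tested genes did so. They lay below for 1 gene, Mnt, where 24.4% of all genes did so, and the genotypes overlapped for 15. In 13 alternative analyses, 7 of the 12 calls held throughout: Myc, Polr1A, Ns1, nclb, Mat89Ba, CG9799 and Nop17l.

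**Figure D1:**
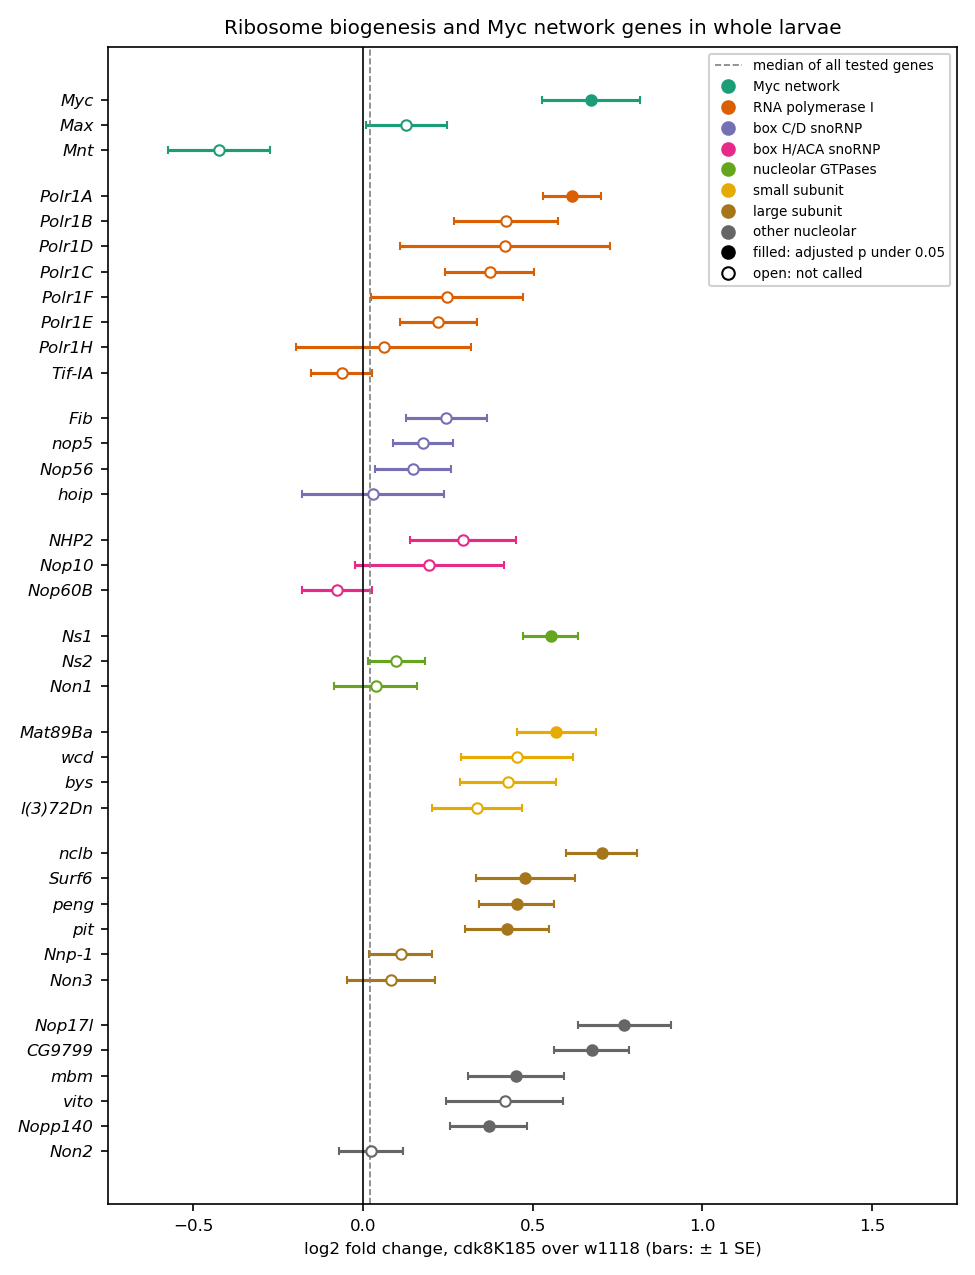
Log2 fold change, cdk8K185 over w1118 (x axis), for each of the 37 genes (y axis), grouped by role. Points are edgeR estimates from 3 libraries a genotype, bars are ± 1 SE, filled points have an adjusted p under 0.05, and the dashed line is the median of all tested genes, 0.02. The 12 filled points lie between 0.37 and 0.77, and Mnt stands alone at -0.42.

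Tissue markers differed as well, and whole-larva RNA cannot separate fewer cells of a type from less RNA per cell or a shift in developmental stage. Library totals lay between 9208564 and 11724703 counts. Cdk8 itself was lower but not absent, at 4.73, 6.46 and 7.22 CPM in cdk8K185, against 10.1, 9.53 and 8.83 CPM in w1118 (log2 fold change -0.63, SE 0.19, adjusted p = 0.034, edgeR). A count per gene does not show which part of Cdk8 these reads came from, and they do not by themselves show a null. I-2 had a log2 fold change of -2.55 (SE 0.13). Of 9 salivary gland markers, 8 were lower and their summed level was 1814 to 2774 CPM (counts scaled to a common library size) in cdk8K185, against 28919 to 35360 CPM in w1118. The Sgs genes of this list had log2 fold changes from -6.46 to -2.06. The other markers had -2.28 (sage), -0.55 (fkh) and 0.03 (CrebA, not called). Of 7 mitosis genes 6 were higher, with sums of 398 to 452 CPM in cdk8K185 against 245 to 283 CPM in w1118. Of 12 imaginal disc markers 2 were higher and 2 lower (283 to 334 CPM in cdk8K185, 261 to 304 CPM in w1118), and of 8 brain and neuroblast markers 2 were lower (216 to 223 CPM in cdk8K185, 359 to 391 CPM in w1118). Fat body markers had 2 of 6 lower (19983 to 42670 CPM in cdk8K185, 67859 to 73800 CPM in w1118). No marker of these 5 lists was at or under 3 counts in all libraries of a genotype. Of 6 midgut markers, betaTry was higher and Amy-d lower (2644 to 3281 CPM summed in cdk8K185, 2471 to 3898 CPM in w1118). Of 7 germline and testis markers 4 were tested, with mia higher and aly and sa lower. Among those not tested, can had 3, 5 and 2 counts in cdk8K185, against 33, 40 and 6 counts in w1118. Both aly and sa were at 0 to 1 counts in every cdk8K185 library, against 11 to 39 counts for aly and 12 to 28 counts for sa in w1118, while the summed level of the list was 13.2 to 15.4 CPM in cdk8K185 and 8.83 to 21.3 CPM in w1118. The male-specific RNA roX1 ran from 252 to 945 CPM in cdk8K185 and from 202 to 451 CPM in w1118. The paper reports that Cdk8 and CycC mutations alter transcription of metamorphosis genes by way of the ecdysone receptor. The part of tissue makeup, developmental stage and sex in the results below was not tested.

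Of the Myc network, Myc was higher, Max differed little, and Mnt was lower by an amount that missed the threshold. Myc (FBgn0262656, chromosome arm X, 3373159 to 3391697, + strand in the BDGP6.54 annotation) had 72.3, 79.5 and 70.0 CPM in cdk8K185 replicates 1 to 3, against 56.6, 42.8 and 39.7 CPM in w1118. The lowest cdk8K185 library was above the highest w1118 library. The means were 73.9 ± 4.95 CPM in cdk8K185 and 46.4 ± 9.0 CPM in w1118 (SD, n = 3 each), a 1.59-fold difference (log2 fold change 0.67, SE 0.14, adjusted p = 0.011, edgeR quasi-likelihood test). Over the 13 alternatives the log2 fold change ran from 0.59 to 0.88 and the adjusted p from 0.0018 to 0.041. The exons of Myc share 3754 of their 9170 bases with CG12535 on the other strand, where CG12535 had 6 to 20 counts in each library. They share 1859 bases with lncRNA:CR44999 on the same strand, which had 0 to 2 counts in each library. How reads in the shared stretches were assigned is not given in the sources used here, so they cannot be told apart.

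Mnt (FBgn0023215, arm X, 3671801 to 3701672, + strand), the repressor that shares Max with Myc, ran the other way. It had 46.8, 35.6 and 46.6 CPM in cdk8K185, against 66.5, 49.6 and 57.1 CPM in w1118, so that the genotypes did not overlap but w1118 replicate 2 came near. The log2 fold change was -0.42 (SE 0.15, adjusted p = 0.062, edgeR). Without w1118 replicate 2 it was -0.52 with an adjusted p of 0.044, and over the alternatives the adjusted p ran from 0.023 to 0.29. Max (FBgn0017578, arm 3L, 19262232 to 19264184, - strand) had 17.3, 18.4 and 20.6 CPM in cdk8K185, against 17.3, 15.7 and 18.6 CPM in w1118. These ranges overlapped, with a log2 fold change of 0.13 (SE 0.12, adjusted p = 0.42, edgeR).

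A list of 9 genes that act on the Myc protein, its mRNA or its targets had 0 calls in either direction (edgeR, 0 higher and 3 lower at an unadjusted p under 0.05; DESeq2 called 2 lower and limma-voom 0). Of the 9 log2 fold changes, 4 were above 0 and 5 below, with a range from -0.47 to 0.14. The lowest were those of brat, at -0.47 (adjusted p = 0.064, edgeR), and ago, at -0.36 (adjusted p = 0.059, edgeR). Both had every cdk8K185 library below every w1118 library. So did scny (-0.27, SE 0.11) and hfp (-0.11, SE 0.09), which made 4 of the 9, beside 24.4% of all tested genes. The helicases pont and rept, partners of Myc, had log2 fold changes of -0.05 and 0.14.

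**Figure D2:**
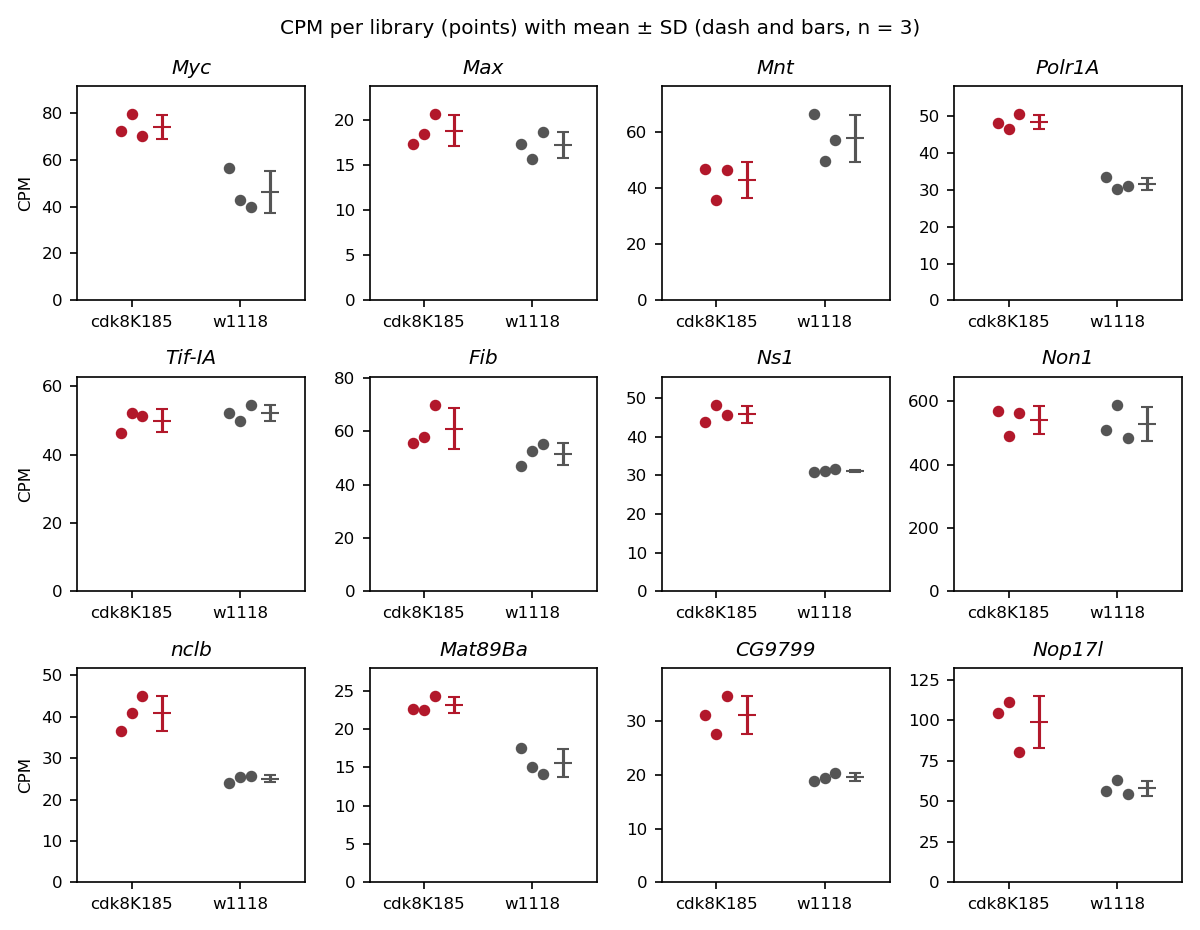
CPM per library (y axis, from 0) in cdk8K185 and w1118 for 12 of the genes. Points are libraries in replicate order, and the dash with bars is the mean ± SD (n = 3). Myc, Polr1A, Ns1, nclb, Mat89Ba, CG9799 and Nop17l have no overlap with cdk8K185 above, Mnt has no overlap with cdk8K185 below, and Max, Tif-IA and Non1 overlap.

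Among the 8 genes of the RNA polymerase I machinery, 1 was higher and 0 lower, with a median log2 fold change of 0.31. That is 12.5% called higher, under the 19.9% of all tested genes. The one called was Polr1A, which encodes the largest subunit and holds the catalytic centre together with the product of Polr1B. Polr1A (FBgn0019938, arm 2R, 14595611 to 14601216, - strand) had 48.1, 46.6 and 50.5 CPM in cdk8K185, against 33.4, 30.2 and 31.1 CPM in w1118. The genotypes were well apart, and the log2 fold change of 0.62 (SE 0.09) had the lowest adjusted p of the 37 genes, 0.0018 (edgeR). Polr1B had 17.9, 17.2 and 22.1 CPM in cdk8K185, against 14.9, 15.8 and 12.0 CPM in w1118, which also did not overlap. Its log2 fold change was 0.42 (SE 0.15) and its adjusted p 0.066 (edgeR).

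Polr1C and Polr1D encode subunits that RNA polymerase III uses too. Polr1C had a log2 fold change of 0.37 (SE 0.13, adjusted p = 0.060, edgeR), which without w1118 replicate 3 was 0.47 (adjusted p = 0.047). Polr1D, at 2.70 to 4.81 CPM in cdk8K185 and 2.27 to 3.34 CPM in w1118, had one of 0.42 with an SE of 0.31, so that a difference of this size could not be told from 0 at its depth. The same holds of Polr1F (0.25, SE 0.22) and Polr1H (0.06, SE 0.26), while Polr1E had 0.22 (SE 0.11).

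The initiation factor Tif-IA, the fly counterpart of RRN3 that brings the polymerase to the rRNA promoter, differed little between the genotypes. Tif-IA (FBgn0032988, arm 2L, 22249876 to 22258260, + strand) had 46.2, 52.2 and 51.4 CPM in cdk8K185, against 52.2, 49.7 and 54.5 CPM in w1118. The ranges overlapped and the log2 fold change was -0.06 (SE 0.09, adjusted p = 0.60, edgeR). With library totals as the only scaling it was 0.16.

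With edgeR the core proteins of the small nucleolar RNPs gave 0 calls among 7 genes in either direction, also at an unadjusted p under 0.05. DESeq2 and limma-voom called 0 too. With library totals as the only scaling 3 of the 7 were called higher, Fib, nop5 and NHP2, beside 32.5% of all tested genes. Of all tested genes 19.9% were called higher in the main edgeR analysis, and 0 among 7 genes is not set apart from that share. Box C/D particles place 2′-O-methyl groups on rRNA, and their 4 core proteins had log2 fold changes from 0.03 to 0.25. Fib (FBgn0003062, arm 2R, 23072909 to 23074725, - strand), the fibrillarin that carries the methyltransferase activity, had 55.5, 57.7 and 69.9 CPM in cdk8K185, against 46.9, 52.5 and 55.1 CPM in w1118. The genotypes did not overlap, but the lowest cdk8K185 library stood just above the highest w1118 library. The log2 fold change was 0.25 (SE 0.12, adjusted p = 0.14, edgeR).

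The scaffold protein nop5, the fly NOP58, was likewise above w1118 in every library, with 72.2, 68.9 and 79.9 CPM in cdk8K185, against 64.8, 67.2 and 63.5 CPM in w1118. Its log2 fold change was 0.18 (SE 0.09). Its partner Nop56 (0.15, SE 0.11) and the RNA-binding protein hoip (0.03, SE 0.21) overlapped between genotypes. Box H/ACA particles convert uridine to pseudouridine. Nop60B, the fly dyskerin that catalyses this, had 97.0, 96.8 and 116 CPM in cdk8K185, against 105, 107 and 114 CPM in w1118, and a log2 fold change of -0.08 (SE 0.10), which was 0.14 with library totals alone. Its companions NHP2 and Nop10 had 0.29 (SE 0.16) and 0.20 (SE 0.22).

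Of the nucleolar GTPases that act on precursors of the large subunit, Ns1 was higher and the others were not called. Ns1 (FBgn0038473, arm 3R, 17070523 to 17072675, - strand), the fly nucleostemin, had 43.8, 48.3 and 45.6 CPM in cdk8K185, against 31.0, 31.3 and 31.6 CPM in w1118. The w1118 libraries were almost equal and every cdk8K185 library stood well above them. The log2 fold change was 0.55 (SE 0.08, adjusted p = 0.0022, edgeR). Its paralogue Ns2 had 64.8 ± 1.67 CPM in cdk8K185 and 60.5 ± 3.46 CPM in w1118 (SD, n = 3 each), a log2 fold change of 0.10 (SE 0.08). Non1, the fly counterpart of GTPBP4, had 570, 490 and 565 CPM in cdk8K185, against 510, 589 and 485 CPM in w1118, with a log2 fold change of 0.04 (SE 0.12).

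All 4 factors of the small subunit processome and pre-40S particle had every cdk8K185 library above every w1118 library. Over all tested genes 29.2% did so. Of the 4, 1 passed the test, or 25%, near the 19.9% of all tested genes called higher. The median log2 fold change of the 4 was 0.44. Mat89Ba (FBgn0261286, arm 3R, 16268329 to 16272415, - strand), the fly counterpart of NOL6, had 22.6, 22.5 and 24.3 CPM in cdk8K185, against 17.6, 15.1 and 14.1 CPM in w1118. Its log2 fold change was 0.57 (SE 0.12, adjusted p = 0.0084, edgeR). The bystin gene bys followed with 0.43 (SE 0.14) and an adjusted p of 0.050323 (edgeR), just above the threshold. Its values were 21.2, 25.7 and 28.7 CPM in cdk8K185, against 17.3, 18.1 and 20.9 CPM in w1118, and it was called without cdk8K185 replicate 1 (adjusted p = 0.037) and without w1118 replicate 3 (adjusted p = 0.044). The WD-repeat proteins wcd and l(3)72Dn, counterparts of UTP18 and UTP4, had 0.45 (SE 0.17) and 0.34 (SE 0.13).

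Of the 6 large subunit factors 4 were called higher and 0 lower, where 19.9% of all tested genes were called higher. The median log2 fold change of the 6 was 0.44. Of the 4 calls, 1 held in all alternatives. Without cdk8K185 replicate 3 the count called higher was 1, and without any one w1118 library it was 2. The gene nclb (FBgn0263510, arm 2R, 10875748 to 10877296, + strand), counterpart of the WD-repeat protein PWP1, had 36.7, 40.8 and 45.0 CPM in cdk8K185, against 24.0, 25.5 and 25.7 CPM in w1118. It was 1.63-fold higher (log2 fold change 0.70, SE 0.10, adjusted p = 0.0022, edgeR). The pumilio-like protein gene peng (FBgn0015527, arm X, 21346503 to 21349843, - strand) had 39.1, 44.8 and 47.7 CPM in cdk8K185, against 29.4, 32.2 and 34.7 CPM in w1118. Its log2 fold change was 0.45 (SE 0.11, adjusted p = 0.017, edgeR), and without cdk8K185 replicate 3 the call was lost (adjusted p = 0.055, with a range over the alternatives of 0.0045 to 0.055).

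The DEAD-box helicase gene pit (FBgn0266581, arm 3R, 22034298 to 22038925, + strand), the fly DDX18, had 37.0, 39.0 and 49.1 CPM in cdk8K185, against 30.5, 30.7 and 32.0 CPM in w1118. Surf6 (FBgn0038746, arm 3R, 19903665 to 19904868, - strand), counterpart of the yeast factor Rrp14, had 16.1, 18.3 and 22.4 CPM in cdk8K185, against 14.5, 13.2 and 13.1 CPM in w1118. In both genes cdk8K185 replicate 3 was the highest library and replicate 1 stood nearest to w1118. The log2 fold changes were 0.42 (SE 0.12, adjusted p = 0.032) for pit and 0.48 (SE 0.14, adjusted p = 0.038) for Surf6, both with edgeR. The call of pit was lost without cdk8K185 replicate 3 or any one w1118 library (adjusted p from 0.054 to 0.082, with a range over the alternatives of 0.0088 to 0.082), and with DESeq2. That of Surf6 was lost with DESeq2 and on leaving out any library but cdk8K185 replicate 1 (adjusted p from 0.060 to 0.097, range over the alternatives 0.013 to 0.097). Nnp-1 (0.11, SE 0.09) and Non3 (0.08, SE 0.13), counterparts of RRP1 and RPF2, overlapped between genotypes.

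Of the 6 genes left, 4 were higher and 0 lower, where 19.9% of all tested genes were called higher. Of the 4 calls, 2 held in all alternatives. Among the 6 genes, Nop17l came in by its symbol alone, and its place in the nucleolus was not checked. The difference was greatest in Nop17l, which had 105, 111 and 80.5 CPM in cdk8K185, against 56.5, 62.8 and 54.3 CPM in w1118. Nop17l (FBgn0033224, arm 2R, 7800785 to 7806385, - strand) was 1.71-fold higher, with a log2 fold change of 0.77 (SE 0.14, adjusted p = 0.0049, edgeR). Its exons share 260 of 3991 bases with PolZ1 on the other strand, and PolZ1 was higher as well, at 27.3, 24.2 and 24.5 CPM in cdk8K185, against 7.66, 8.04 and 7.86 CPM in w1118 (log2 fold change 1.69, SE 0.11). The strand setting of the counting is not given in the sources used here, so the reads of the shared stretch cannot be told apart. CG9799 (FBgn0038146, arm 3R, 13385648 to 13388709, - strand) shares no exon bases with another gene. It had 31.2, 27.6 and 34.6 CPM in cdk8K185, against 18.9, 19.4 and 20.4 CPM in w1118, and its log2 fold change was 0.67 (SE 0.11, adjusted p = 0.0035, edgeR).

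Nopp140 (FBgn0037137, arm 3L, 21832774 to 21836685, + strand), a chaperone of snoRNPs, had 79.1, 88.2 and 80.6 CPM in cdk8K185, against 72.3, 63.0 and 56.3 CPM in w1118. The zinc-finger gene mbm (FBgn0086912, arm 2L, 271912 to 273715, - strand), whose product sits in the nucleolus of neuroblasts and is needed for their growth, had 15.6, 18.2 and 21.2 CPM in cdk8K185, against 12.95, 12.8 and 14.5 CPM in w1118. Neither overlapped between the genotypes, but in each the nearest libraries were close. The log2 fold changes were 0.37 (SE 0.11, adjusted p = 0.039) for Nopp140 and 0.45 (SE 0.14, adjusted p = 0.042) for mbm, both with edgeR. The call of Nopp140 was lost with DESeq2, with RLE factors and without any single library other than w1118 replicate 1 (adjusted p from 0.068 to 0.11, range over the alternatives 0.013 to 0.11). That of mbm was lost with DESeq2, RLE factors or limma-voom and without cdk8K185 replicate 2 or 3 or w1118 replicate 1 or 2 (adjusted p from 0.084 to 0.12, range over the alternatives 0.012 to 0.12). The NOL12 counterpart vito had 0.42 (SE 0.17) and Non2 had 0.02 (SE 0.09).

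The cdk8K185 libraries were not alike in these genes. The median deviation from the w1118 mean, in log2 CPM over the 37 genes, was 0.18, 0.31 and 0.45 in cdk8K185 replicates 1 to 3, against -0.04, -0.00059 and 0.04 in w1118. Each cdk8K185 library was thus above each w1118 library on this measure. Replicate 3 was the highest cdk8K185 library for 24 of the 37 genes, and replicate 1 the lowest for 21. The 6 muscle markers summed to 9588, 5446 and 4775 CPM in the same cdk8K185 libraries, against 4138, 9584 and 10769 CPM in w1118, and the part of this in the results was not tested.

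The coefficient of variation between replicates had a median of 11.1% over the 37 genes in cdk8K185 and 7.40% in w1118, beside 10.97% in cdk8K185 and 13.1% in w1118 over all tested genes. The summed level was 2026 ± 89.0 CPM in cdk8K185 and 1775 ± 50.0 CPM in w1118 (SD, n = 3 each), a ratio of 1.14. Non1 alone made up 542 CPM of the sum in cdk8K185 and 528 CPM in w1118, and without it the ratio was 1.19.

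**Figure D3:**
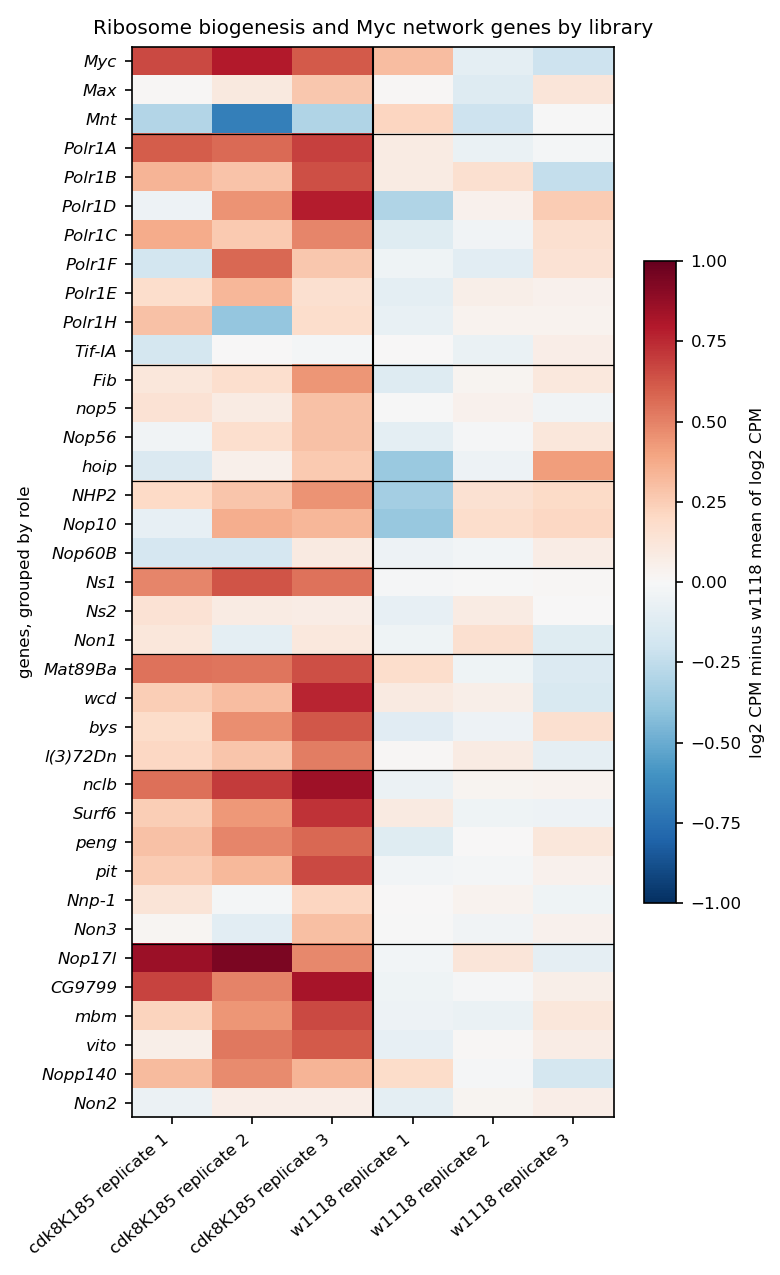
Log2 CPM of each of the 37 genes (rows, grouped by role) in each library (columns, cdk8K185 left, w1118 right), less the w1118 mean. Red is above that mean and blue below. Medians over the genes are 0.18, 0.31 and 0.45 in cdk8K185 replicates 1 to 3, and Mnt is the one gene that is blue in all 3 without overlap.

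In the main analysis the calls among the 37 fell outside the 10 genes with the highest level per kb. Per kilobase of exon, Non1 was the most abundant of the 37, at 238 CPM per kb in cdk8K185 and 232 CPM per kb in w1118, followed by Non2 at 132 CPM per kb in cdk8K185 and 130 CPM per kb in w1118. The 10 genes with the highest level per kb in w1118 (24.4 to 232 CPM per kb) were Non1, Non2, Nop60B, Tif-IA, Ns2, NHP2 and the 4 box C/D proteins, a cut chosen after the values were seen. They had 0 calls with edgeR, 0 also at an unadjusted p under 0.05, and log2 fold changes from -0.08 to 0.29 with a median of 0.07. With library totals as the only scaling 4 of the 10 were called higher, beside 32.5% of all tested genes. The other 27 genes (3.74 to 19.8 CPM per kb) held all 12 calls, and their median log2 fold change was 0.42. The median SE was 0.11 for these 10 genes and 0.13 for the other 27. Of all 2683 tested genes at or above 24.4 CPM per kb, 14.2% were called higher, beside 20.9% of the 5101 genes between that level and 3.74 CPM per kb. With so few genes, 0 among 10 is not set apart from the 14.2%.

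**Figure D4:**
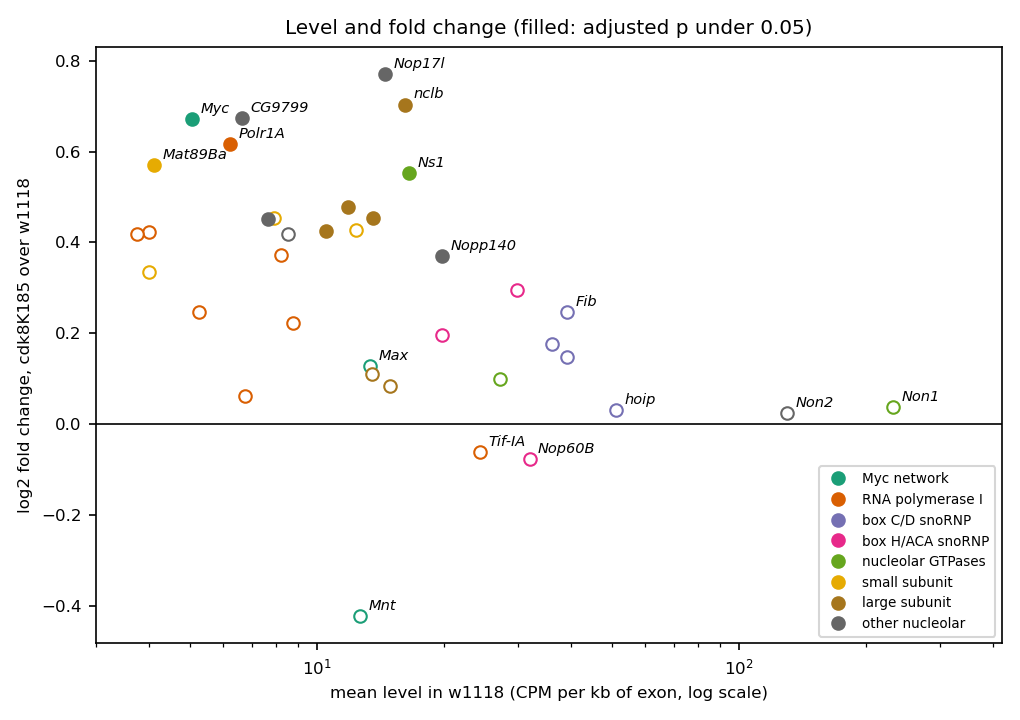
Mean level in w1118 (x axis, CPM per kb of exon, log scale) against log2 fold change, cdk8K185 over w1118 (y axis), for the 37 genes. Filled points have an adjusted p under 0.05 and colours give the role. No filled point lies at or above 24.4 CPM per kb, while below it the log2 fold changes reach 0.77.

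Ribosome biogenesis genes outside the 37 had a like median, with calls unevenly spread over the lists. Of 52 such genes in 4 lists, 25 were higher and 1 was lower (edgeR). That is 48.1% called higher, beside 19.9% of all tested genes. The median log2 fold change was 0.39, and 17 of the calls higher held in all alternatives. In the large subunit list 11 of 18 were higher, led by Nmd3, the export adaptor of the 60S subunit. Nmd3 had 43.5 ± 1.38 CPM in cdk8K185 and 26.4 ± 1.81 CPM in w1118 (SD, n = 3 each), a log2 fold change of 0.72 (SE 0.09). Beside it stood CG5033 (0.67, SE 0.10). The helicase gene Ddx56 was the one called lower, with 80.8 ± 3.17 CPM in cdk8K185 and 119 ± 4.83 CPM in w1118 (SD, n = 3 each; log2 fold change -0.56, SE 0.08, adjusted p = 0.0024, edgeR).

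In the small subunit list 9 of 14 were higher and 0 lower (edgeR; 0 lower also at an unadjusted p under 0.05, with DESeq2 and with limma-voom). The kinase RIOK1 had a log2 fold change of 0.76 (SE 0.13), the GTPase-like factor Tsr1 one of 0.74 (SE 0.10), and CG7728 one of 0.50 (SE 0.09). Of 11 exosome genes, which trim and degrade RNA from its 3′ end, 3 were higher, or 27.3%, beside 19.9% of all tested genes. They were the nuclease Dis3 (0.41, SE 0.08), Rrp4 (0.56, SE 0.15) and Rrp45 (0.47, SE 0.12). Without w1118 replicate 1 or 2 the call of Rrp4 was lost, and without cdk8K185 replicate 1 or 2 or w1118 replicate 2, or with DESeq2, that of Rrp45. Of 9 further RNA polymerase I and nucleolar factors, udd (0.51, SE 0.12), part of the complex at rRNA gene promoters, and mod (0.36, SE 0.10) were higher. That share, 22.2%, was near the 19.9% of all tested genes called higher. The call of mod was lost on leaving out any library but w1118 replicate 1.

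The rest of the growth machinery split, where 19.9% of all tested genes were called higher and 17.0% lower. Of 12 tested RNA polymerase III genes, 5 were higher, among them the largest subunits Polr3A (0.51, SE 0.11) and Polr3B (0.37, SE 0.08, not called without cdk8K185 replicate 1), and 1 was lower. The one lower was Maf1, the repressor of this polymerase, with 35.1, 52.4 and 40.7 CPM in cdk8K185, against 80.1, 79.2 and 99.5 CPM in w1118 (log2 fold change -1.01, SE 0.17, adjusted p = 0.0037, edgeR). Of 32 aminoacyl-tRNA synthetase genes 13 were higher and 1 lower, with a median of 0.31, led by ValRS (0.79, SE 0.10), IleRS (0.69, SE 0.09) and LeuRS (0.63, SE 0.08). All 6 genes of the MCM replicative helicase were higher, with a median of 1.10, Mcm5 at 54.4 ± 4.5 CPM in cdk8K185 and 23.3 ± 0.82 CPM in w1118 (SD, n = 3 each).

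The genes of the ribosomal proteins themselves were mostly on the other side of 0, but few passed the test. Of 84 tested cytosolic ribosomal protein genes, 0 were higher and 11 lower (edgeR; 0 higher and 25 lower at an unadjusted p under 0.05), with a median log2 fold change of -0.24. The share called lower was 13.1%, under the 17.0% of all tested genes. RpL5 had 1399, 1304 and 1418 CPM in cdk8K185, against 2424, 2602 and 2806 CPM in w1118 (log2 fold change -0.93, SE 0.12). RpL15 had -0.79 (SE 0.13), and RpS14b had -1.05 (SE 0.13). RpS14b has a near-identical copy, RpS14a, with which reads may have been shared. The count of ribosomal protein genes called lower depended on the analysis: DESeq2 gave 32, limma-voom 13, and leaving out single libraries 3 to 18. With library totals as the only scaling, 1 was higher and 4 lower and the median was -0.02, while the median of all tested genes moved up by 0.22 to 0.24.

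**Figure D5:**
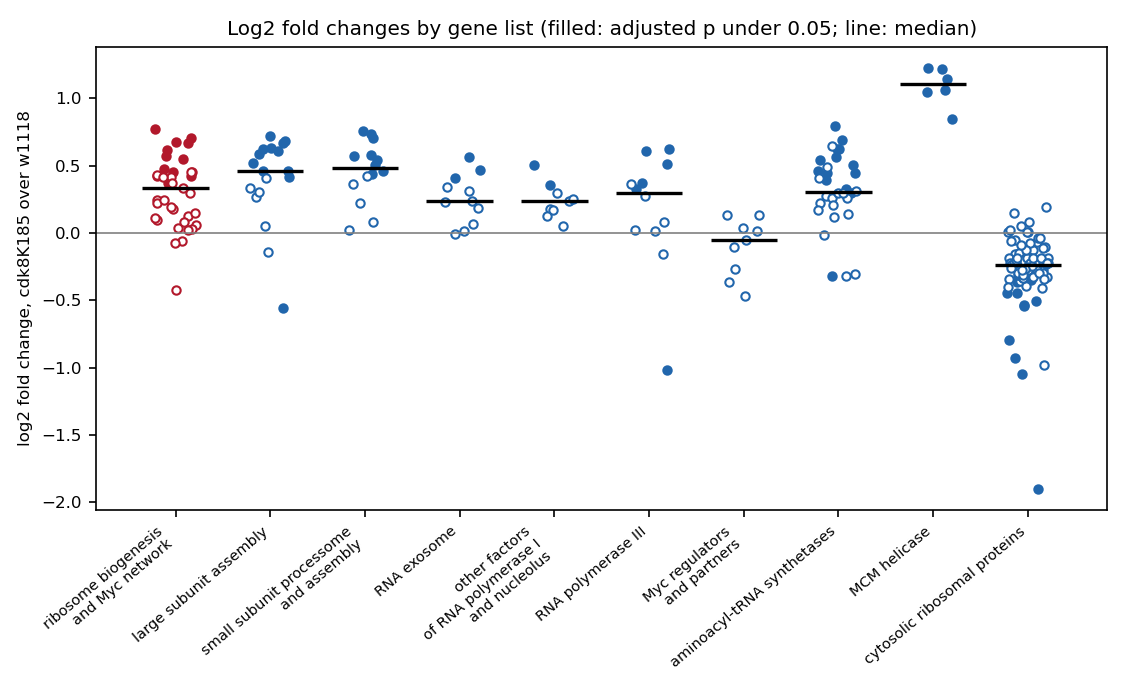
Log2 fold change, cdk8K185 over w1118 (y axis), for each gene of the 37 (red) and of 9 other lists (blue). Filled points have an adjusted p under 0.05, and the line is the median of each list, 0.34 for the 37, 1.10 for the MCM genes and -0.24 for the ribosomal proteins.

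A change of scaling moves nearly all log2 fold changes alike, so the shift of the 37 relative to all genes was near fixed in advance. The median of the 37 less that of all tested genes was 0.31 with TMM factors, 0.31 with RLE factors and 0.32 with library totals. With DESeq2, which tested a different set of genes, it was 0.36. With library totals alone, 23 of the 37 were called higher and 0 lower, but 32.5% of all tested genes were then called higher, and the split of calls over all genes was 3452 higher to 1203 lower, beside 2114 higher to 1805 lower with TMM factors. By position the 37 genes were spread over all major arms, with 4 on X, 6 on 3L and 9 on 2R, and the nearest to Cdk8 lay 4.06 Mb away.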

How the data were processed

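RNA from 6 pools of larvae was sequenced, and the authors deposited 1 table of whole-number counts per gene, not normalized. The submitters' processing notes name STAR, featureCounts, DESeq2 and dm6; versions and the strand setting are not given in the sources used here. Gene identifiers were named and placed with the BDGP6.54 annotation of Ensembl 115 (17477 of 17562 matched; the other 85 held 0.313% of counts).

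Counts went into edgeR 4.0.16 (R 4.3.3) with genes kept by filterByExpr (default settings, 10 counts and a total of 15), TMM factors, genotype as the single term, and a robust two-sided quasi-likelihood test. Benjamini-Hochberg adjustment covered all 10632 tested genes, and the threshold was 0.05. SE is the absolute log2 fold change over the square root of F. CPM use TMM-scaled totals. Alternatives used DESeq2 1.42.0, limma-voom 3.58.1, RLE factors, library totals, 2 other count filters, the replicate number as a term, and single libraries left out. The test was tested on simulated data. No replicate libraries agreed within sampling noise (chi-square per degree of freedom 18.69 to 47.11).

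The genes and lists were chosen with earlier results of these data known. Values per library are given for Myc, Max, Mnt, Fib and Tif-IA, and in each role for up to 4 called genes with the lowest adjusted p, as well as every call in the rarer direction. From each list up to 3 called genes with the lowest adjusted p are named, except 1 that is not reported here. Other genes were named after their values were seen. Figures used Python 3.11.15 and matplotlib 3.10.9. Sequences are not analysed here.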

Additional observations from a re-analysis of the deposited data

How the results depend on the processing

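The count of genes called higher, 12, was 10 with RLE factors, 23 with library totals, 8 with DESeq2, 11 with limma-voom, 13 with no filter on low counts, 13 with at least 10 counts in every library, 6 at an adjusted p under 0.01, and 7 to 13 with single libraries left out. Of all tested genes, 18.1% were called higher with RLE factors, 32.5% with library totals and 14.9% with DESeq2. With single libraries left out that share was 13.4% to 17.8%. The count called lower, 0, was 1 (Mnt) with at least 10 counts in every library and with the replicate block, and 0 to 1 with single libraries left out. The median log2 fold change, 0.34, was 0.55 with library totals. The 25 calls higher among the other biogenesis genes became 13 at an adjusted p under 0.01. Myc kept its call in all 13 alternatives at the 0.05 threshold, and its adjusted p of 0.011 (edgeR) was above 0.01.

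Genes near 0 changed sign. With RLE factors hoip was at -0.0098, Non1 at -0.0016 and Non2 at -0.0158. Non2 was at -0.0042 with DESeq2 and at -0.0060 with at least 10 counts in every library, and with library totals Nop60B was at 0.14 and Tif-IA at 0.16. With single libraries left out the log2 fold change ran from -0.14 to 0.28 for hoip, from -0.00499 to 0.123 for Non1, from -0.0231 to 0.0745 for Non2, from -0.0182 to 0.17 for Non3 and from -0.0829 to 0.24 for Polr1H. None of these was called in either direction, and the cause was not tested.

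The replicate block gave 11 calls higher and 1 lower among the 37 genes, and 1906 higher and 2082 lower over all genes. Same-numbered libraries did not deviate together throughout (correlations of their deviations -0.26, 0.41 and 0.43 for numbers 1 to 3), so the numbers were not taken as a pairing, and not every cdk8K185 library correlated best with its own number. With the block, bys and Mnt gained a call, and Nopp140, Surf6, Rrp45 and mod were no longer called (edgeR, adjusted p 0.051, 0.060, 0.053 and 0.063).

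Polr1D, Polr1F, Polr1H and Nop10, with under 10 CPM in every library, had SEs of 0.22 to 0.31. A difference of 0.34, the median of the 37, could not be told from 0 there at this depth.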
